A study of Mus musculus with 4 samples.

Results

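The axon guidance genes described here are the semaphorins, plexins, neuropilins, Eph receptors, ephrins, Slits, Robos and Unc5 genes on a mouse expression array. They were chosen by the pattern of the gene symbol alone, from probe sets that the platform annotation gives a single symbol, and each gene is represented by its probe set of highest mean intensity over the 4 arrays. This gave 66 genes of the 18193 that had such a probe set. Of the 66 symbols, Unc50 and Plxna4os1 match the pattern by their letters only: Unc50 belongs to another protein family, and Plxna4os1 is an RNA of the opposite strand at Plxna4. Total RNA labelled as that of mouse mesangial cells, the contractile cells between the capillary loops of the kidney glomerulus, was measured on 2 arrays labelled low glucose and 2 labelled TGFBeta, which the sample descriptions name as TGFBeta1, transforming growth factor beta 1. The sources used here do not give the mouse strain, the origin of the cells, the glucose levels, or the dose and time of the cytokine. The labels do not say which glucose the TGF-beta1 cells were kept in, so glucose and the cytokine cannot be told apart as the source of a difference in any gene below.

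Guidance proteins were first known from the growing nerve and also act on attachment, migration and vessel growth in other organs, the kidney among them. Semaphorins are secreted or membrane-bound ligands of the plexins, and most secreted semaphorins reach them through the neuropilins, which also bind vascular endothelial growth factors. Ephrins and Eph receptors, the largest family of receptor tyrosine kinases, are both held in cell membranes and signal in either direction at cell contacts. Ephrins of the A class are attached by a lipid anchor and those of the B class span the membrane. Slits are large secreted ligands of the Robo receptors, and the Unc5 receptors bind netrins.

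The values are log2(intensity + 46.9) after quantile normalisation, where 46.9 is the 25th percentile of all deposited intensities, and differences are TGF-beta1 minus low glucose on that scale, which understates the change of dim genes. Array pair 1 holds low glucose replicate 1 with TGF-beta1 replicate 2, and array pair 2 holds the other array of each group. The pairs rest on 18 spike-in probe sets, of transcripts added for the hybridisation, which differed on average by 0.0533 and 0.0887 log2 units inside pairs 1 and 2, and by 0.969 or more across pairs. A gene is said below to have risen or fallen when its adjusted p was under 0.05 in limma with the array pair as a block and Benjamini-Hochberg adjustment over the 13564 genes tested. That fit had 1 residual degree of freedom and took the spread of each gene from its brightness alone. Without the block, limma called 0 of the 13564 genes, with 269 (1.98%) at an unadjusted p under 0.05, and it also called 0 with the block and a prior of 2.79 degrees of freedom. Every rise and fall below therefore rests on the block and on that shared spread. The labels do not say whether arrays of 1 group stand for separate cultures. All p-values then describe the spread of these arrays alone, and that spread may be technical. Values after ± are standard errors of the blocked fit, with n = 2 arrays per group.

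As a check of the TGF-beta1 label, Pmepa1, an inhibitor of SMAD signalling that TGF-beta induces, rose by 1.29 ± 0.082, Ccn2, connective tissue growth factor, by 0.98 ± 0.065 and Smad7, the inhibitory SMAD, by 0.50 ± 0.072. With the block dropped, Smad7 was at 0.22 and 0.77 with the first and the second low glucose replicate left out. Of 9 mesangial and pericyte markers 7 lay above the level limit for testing, 6.85, none of them with a mean over 7.62, and Gata3 and Thy1 lay below it with a mean of 6.64 and 6.45. Of 6 endothelial markers 1 lay above the limit, Kdr at 7.06, the others having means of at most 6.65. Of 7 renal tubule markers 6 lay above it, with Cdh16 at 10.83, Aqp1 at 10.67, Pax8 at 9.54 and Lrp2 at 8.88. Their summed intensity was 5883 and 4985 on the low glucose arrays and 4043 and 4203 on the TGF-beta1 arrays. Aqp1 fell by 0.67 ± 0.076, Cdh16 by 0.31 ± 0.074 and Lrp2 by 0.29 ± 0.077. Above the limit were also 3 of 4 podocyte, 3 of 5 leukocyte and 4 of 5 neuronal and glial markers on the array, of which Podxl and Tubb3 rose, like the mesangial marker Acta2, and Synpo, Csf1r and Rbfox3 fell. No marker of these lists was listed at 0, and the part of these other cell types in the results below was not tested. Fewer cells of a type and less RNA per cell cannot be told apart in these arrays.

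Of the 66 guidance genes, 52 lay above the level limit and were tested. In TGF-beta1, 7 rose: Nrp2, Epha2, Unc5b, Efnb2, Efna1, Nrp1 and Sema7a. One ephrin, Efna3, fell, and 44 genes did not pass. These 8 calls are 15.4% of the tested members, against 18.6% of all genes tested, a share close enough to that of all genes that the count says nothing particular to guidance genes. By direction, 13.5% of the members rose against 7.94% of all genes, and 1.92% fell against 10.6%. This split depended on the processing, with 6 that rose and 4 that fell with median centring. It was 6 and 3 with the filter at the 60th percentile and 7 and 0 with no filter. With every kept probe set tested it was 9 and 5, counting a gene when any of its probe sets passed. Of all genes called, 42.8% were higher in the fit reported, 33.4% with median centring, 43.7% with that filter and 42.9% with no filter. The median difference of the 52 genes was 0.07 (0.05 within array pair 1 and 0.09 within array pair 2), beside 0.00 over all genes tested. The difference was above 0 for 36 of the 52 genes (69.2%), against 49.9% of all genes, and for 30 with median centring. With the block dropped it was above 0 for 22 members without low glucose replicate 2 and for 21 without TGF-beta1 replicate 2, with a median of -0.07 in each case, and for 41 and 42 without low glucose replicate 1 and TGF-beta1 replicate 1. Both arrays of one group lay above both of the other for 12 of the 52 (23.1%), against 20.8% of all genes. A difference of at least 0.5 was seen in 1 member, Nrp2, against 1.81% of all genes.

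**Figure D1:**
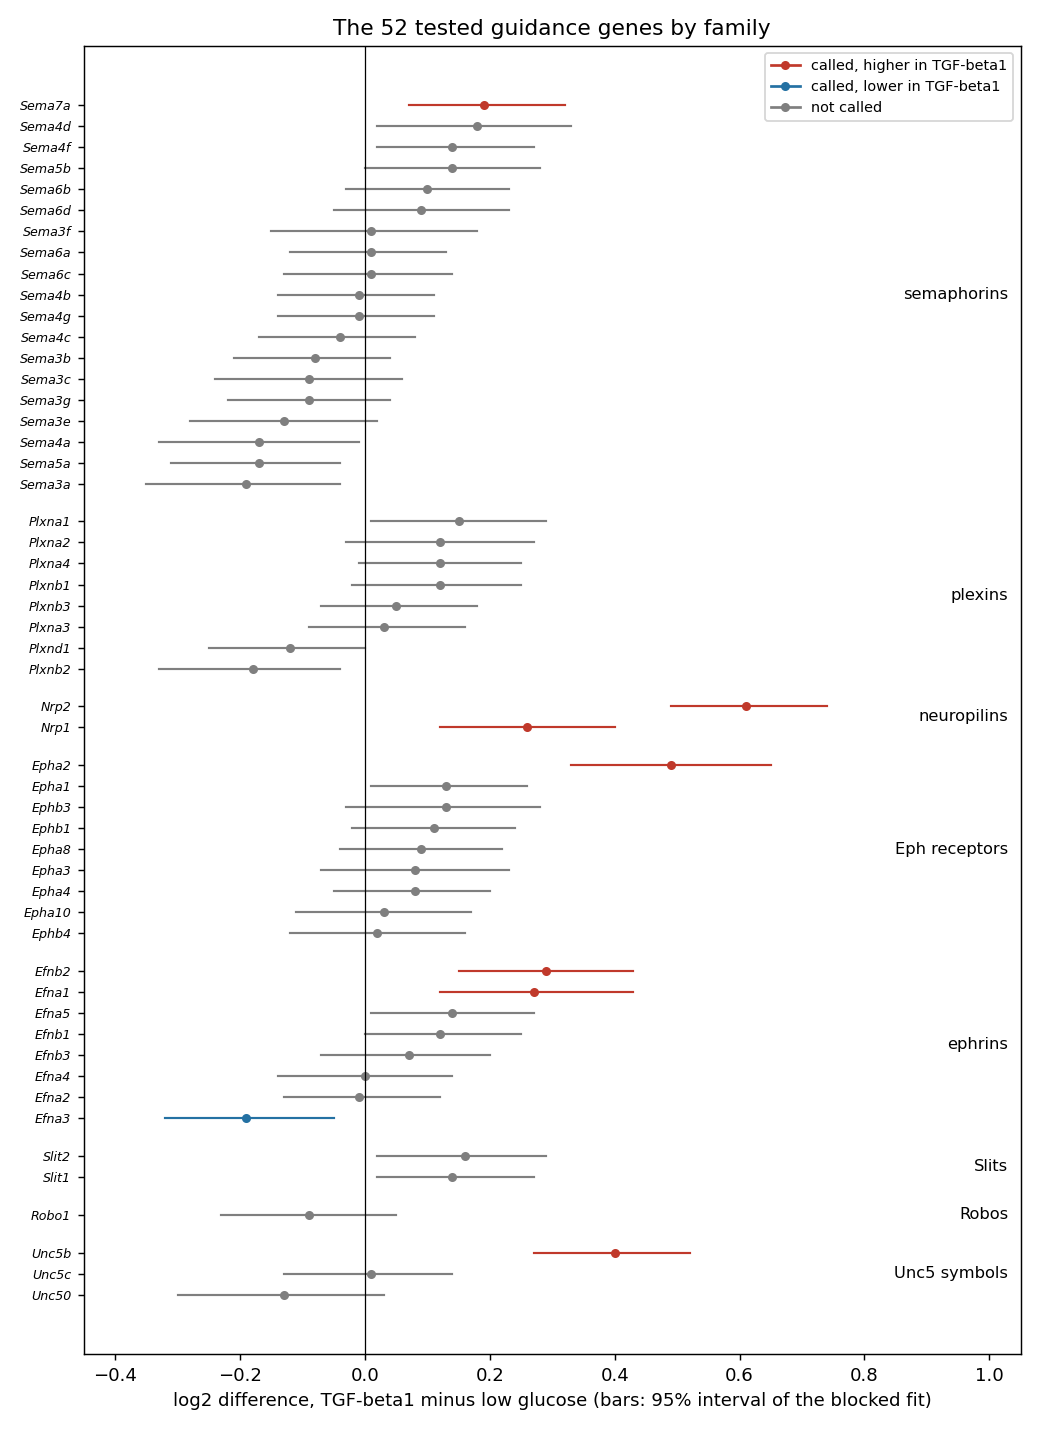
Log2 difference (TGF-beta1 minus low glucose) of the 52 tested guidance genes, ordered within each family, with points for the difference and bars for its 95% interval in the blocked limma fit. Nrp2 at 0.61, Epha2 at 0.49 and Unc5b at 0.40 stand highest, Efna3 at -0.19 is the member that fell, and the semaphorins spread to both sides of 0.

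The promoter sequences of the 4 genes that rose and whose TGF-beta1 arrays both lay above both low glucose arrays are shown here, because in these members the groups did not overlap. Each is the 250 bases before the start that RefSeq annotates on GRCm38.p6, 5′ to 3′ in the direction of the gene. Capitals mark matches on either strand to the SMAD box CAGAC and to the GC box GGGCGG, which touch each other once in Efnb2 and overlap once in Nrp2. For Efna1, which has 2 annotated starts, the window of the start farther upstream is given.
Epha2, chr4:141300971-141301220, plus strand: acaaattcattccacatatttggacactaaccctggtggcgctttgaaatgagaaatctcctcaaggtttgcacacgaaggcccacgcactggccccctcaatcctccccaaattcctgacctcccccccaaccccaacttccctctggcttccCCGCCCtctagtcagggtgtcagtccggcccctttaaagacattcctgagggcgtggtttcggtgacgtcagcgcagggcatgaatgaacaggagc
Nrp2, chr1:62703067-62703316, plus strand: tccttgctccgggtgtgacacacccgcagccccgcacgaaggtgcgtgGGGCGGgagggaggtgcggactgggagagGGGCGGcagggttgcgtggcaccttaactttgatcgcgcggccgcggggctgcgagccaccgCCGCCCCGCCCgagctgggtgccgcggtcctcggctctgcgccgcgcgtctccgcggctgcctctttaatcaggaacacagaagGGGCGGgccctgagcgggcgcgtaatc
Efna1, chr3:89280952-89281201, minus strand: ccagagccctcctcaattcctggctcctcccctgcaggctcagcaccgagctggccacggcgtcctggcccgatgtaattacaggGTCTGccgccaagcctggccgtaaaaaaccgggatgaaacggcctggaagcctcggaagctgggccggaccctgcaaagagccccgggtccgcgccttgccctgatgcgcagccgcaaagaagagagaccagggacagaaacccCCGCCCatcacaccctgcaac
Efnb2, chr8:8661243-8661492, minus strand: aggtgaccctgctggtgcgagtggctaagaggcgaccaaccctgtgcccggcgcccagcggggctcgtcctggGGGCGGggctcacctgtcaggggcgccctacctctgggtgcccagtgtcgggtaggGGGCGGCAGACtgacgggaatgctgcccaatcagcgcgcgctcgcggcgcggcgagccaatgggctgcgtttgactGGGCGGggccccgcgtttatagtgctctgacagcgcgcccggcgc

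The windows of Efna1 and Efnb2 each held 1 CAGAC match, at 165 and 115 bases before the start, and those of Epha2 and Nrp2 held none. Among all 32851 promoter windows of this length, 42.2% held CAGAC, so its presence in 2 of the 4 genes is common. The GC box GGGCGG was matched 5 times in Nrp2, 3 times in Efnb2 and once each in Efna1 and Epha2, and 32.7% of all windows held it. No window of the 4 held the AP-1 site TGANTCA, found in 6.75% of all windows, or the SMAD palindrome GTCTAGAC, found in 0.167%. Promoters were found for 57 of the 66 genes, with 73 windows in all. Of these 73 windows 72.6% held the GC box, 50.7% CAGAC, 4.11% TGANTCA and 2.74% the TATA box TATAAA, which 12.4% of all windows held. The Efnb2 window held 1 such TATA match, at 30 bases before the start. It also held 2 matches to the SMAD motif GGCGCC, at 201 and 156 bases, which no other printed window held. The window of the other Efna1 start, not printed, held 1 match to GGCGCC, at 36 bases. That motif was in 20.5% of the 73 windows and 9.59% of all windows. The TEAD motif GGAATG had 2 matches in Epha2 and 1 in Efnb2. It was in 9.59% of the 73 windows and 12.6% of all windows. A match is a match of letters and was not tied to binding here.

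Both neuropilins rose, the co-receptors that join secreted semaphorins and vascular endothelial growth factors to their signalling receptors. Nrp2 went from 7.38 to 7.98 within array pair 1 and from 7.66 to 8.29 within array pair 2. Both TGF-beta1 arrays lay above both low glucose arrays. The difference was 0.61 ± 0.064, or 1.53-fold, with an adjusted p of 1.63e-19 in the blocked limma fit, and its unadjusted p without the block was 0.0331. A second probe set of Nrp2 went from 7.26 to 7.76 and from 7.60 to 8.23, a difference of 0.56. The other probe sets did not show this rise, one at 0.13 and a dim one, below the level limit, at -0.12. Which part of the transcript each probe set reads was not analysed here.

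Nrp1 went from 8.10 to 8.50 within array pair 1 and from 8.73 to 8.84 within array pair 2. The groups overlapped, because TGF-beta1 replicate 2 lay below low glucose replicate 2. The difference was 0.26 ± 0.072, with an adjusted p of 0.00363 in the blocked limma fit, and 0.40 and 0.11 within the pairs. Its other probe sets stood at 0.14, 0.09 and 0.05. When 1 array was left out and the block dropped, the gap of 0.48 between the array pairs entered the value of Nrp1. It was then -0.06 and 0.57 with the first and the second low glucose replicate left out, and 0.09 and 0.43 with the first and the second TGF-beta1 replicate left out. For Nrp2 these values ran from 0.46 to 0.77, above 0 for every array left out.

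**Figure D2:**
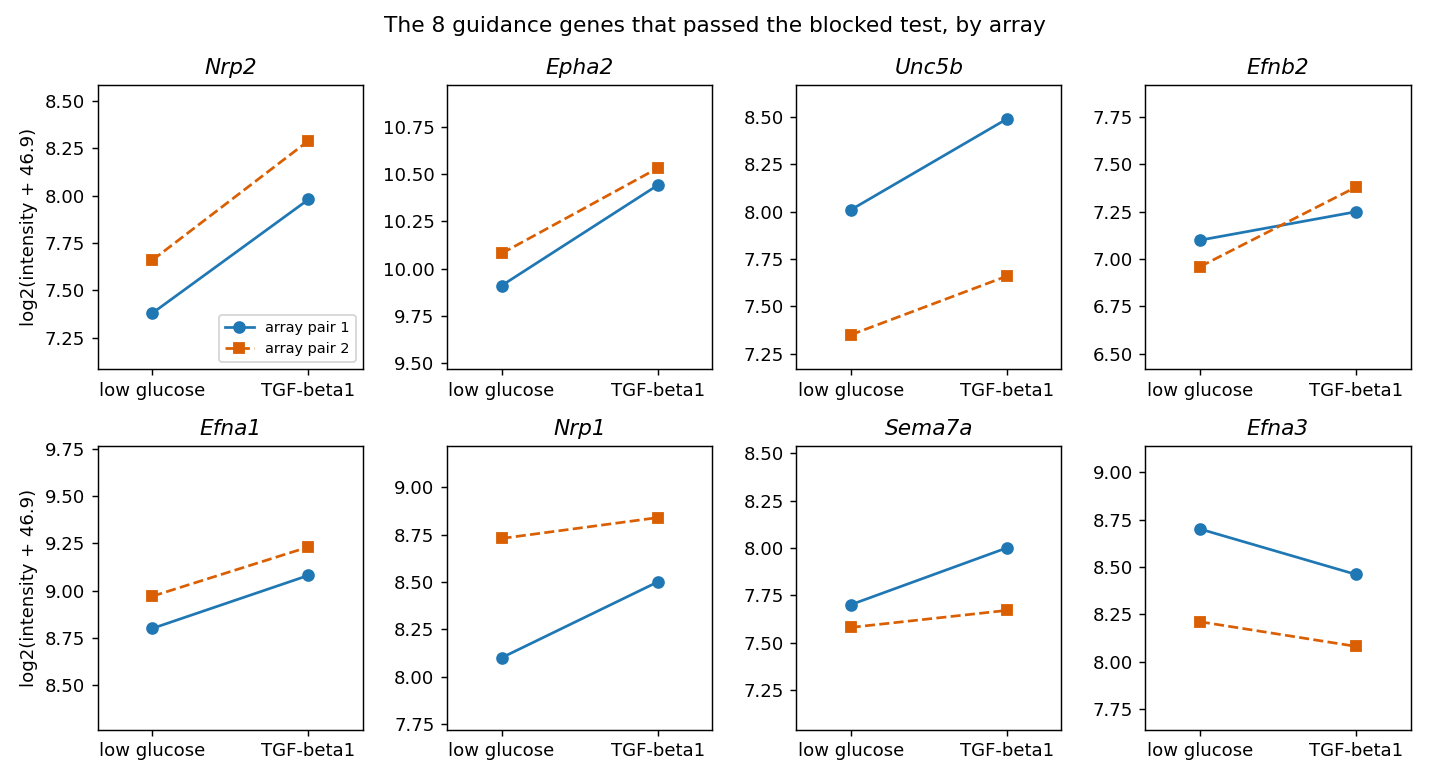
Log2(intensity + 46.9) on each array for the 8 genes that passed, 1 panel per gene with an axis span of 1.5 log2 units, circles and solid lines for array pair 1 and squares and broken lines for array pair 2. For Nrp2, Epha2, Efnb2 and Efna1 both TGF-beta1 arrays lie above both low glucose arrays, and for Unc5b, Nrp1, Sema7a and Efna3 the groups overlap.

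Of the semaphorins, the ligands of this system, most did not pass. Of 20 members 19 were tested, 1 rose, 0 fell and 18 did not pass. Their median difference was -0.01, with 9 genes above 0 and 10 below, or 6 and 13 with median centring. With an array left out and the block dropped, between 5 and 14 were above 0. Sema7a, the semaphorin that carries a lipid anchor and also binds integrins, was the one that rose. It went from 7.70 to 8.0 within array pair 1 and from 7.58 to 7.67 within array pair 2, so the groups overlapped. The difference was 0.19 ± 0.064, with an adjusted p of 0.0192 in the blocked limma fit. With arrays centred on their medians the adjusted p of the limma fit was 0.0524, against 0.34 with the block and the prior of 2.79 degrees of freedom, and 0.016 to 0.0448 in the other alternatives with the block. Its other probe set, below the level limit, stood at 0.03. With the block dropped, Sema7a was at 0.36 when TGF-beta1 replicate 1 was left out and at 0.02 when TGF-beta1 replicate 2 was.

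The secreted semaphorins of class 3, most of which use neuropilins, were below 0 for 5 of the 6 tested. The exception was Sema3f at 0.01, and none passed. All 6 were below 0 with median centring, and 3 of the 6 with low glucose replicate 1 left out and the block dropped. Sema3a, a repulsive ligand that acts through Nrp1, went from 9.0 to 8.73 within array pair 1 and from 8.96 to 8.83 within array pair 2. Both TGF-beta1 arrays lay below both low glucose arrays. The difference was -0.19 ± 0.077, with an adjusted p of 0.0582 in the blocked limma fit. Its 2 other probe sets stood at -0.23 and -0.26, also with no overlap between the groups, though the dimmer of them lay below the level limit. Sema3a passed with the authors' scaling (adjusted p = 0.047 with limma), with median centring (0.0227) and with the filter at the 60th percentile (0.0496). When every kept probe set was tested, the probe set at -0.23 passed with an adjusted p of 0.00629 in the blocked limma fit. Another probe set of Sema3b also passed at -0.26 (0.000625), and the dimmest of Sema3e at -0.19 (0.0316). The brightest probe sets of Sema3b and Sema3e did not pass, at -0.08 and -0.13. Nor did the remaining ones, at -0.17 for Sema3b and at -0.10 and 0.00 for Sema3e. The brightest probe set of Sema4a, which may also match other sequences, did not pass at -0.17, and its other one passed at -0.30 (0.00177). Sema3b, Sema3e and Sema4a are singled out here after their values were seen.

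The probe set of Sema3f, the brightest of the semaphorins and of a kind that may also match other sequences, stood at 10.06 and 9.17 on the low glucose arrays and 9.16 and 10.10 on the TGF-beta1 arrays. Each TGF-beta1 array matched the low glucose array of its pair, at 0.04 and -0.01 within the pairs, while pair 2 lay 0.92 below pair 1. Its difference between groups was 0.01 ± 0.082, with an interval from -0.15 to 0.18, and its other probe sets stood at -0.08 and -0.11. Class 4 semaphorins ran from -0.17 to 0.18, class 5 from -0.17 to 0.14 and class 6 from 0.01 to 0.10. Sema3d was the member below the level limit.

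None of the 8 plexins tested passed, and Plxnc1 and Plxna4os1 lay below the level limit. Plexins are the signalling receptors of the semaphorins, with an intracellular domain that switches off small GTPases. The 4 plexins of the A class, which pair with neuropilins, lay between 0.03 and 0.15. Another probe set of Plxna1 passed at 0.18 (adjusted p = 0.0337 with limma and the block) when all kept probe sets were tested. Its brightest probe set stood at 0.15 (0.143 in that fit), and Plxna1 was singled out after its values were seen. Plxnb2, a receptor of class 4 semaphorins and the brightest plexin probe set, went from 11.31 to 11.09 within array pair 1 and from 10.75 to 10.60 within array pair 2. The groups overlapped. Its difference of -0.18 ± 0.072 had an adjusted p of 0.0559 in the blocked limma fit, and it passed with median centring (0.0453) and with the filter at the 60th percentile (0.0468). Its sign without the block depended on the array left out, at 0.10 and -0.47 without the first and the second low glucose replicate and at 0.06 and -0.43 without the first and the second TGF-beta1 replicate.

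Of 13 Eph receptors 9 were tested, and 1 rose, Epha2, while 8 did not pass. Epha2, a receptor of A-class ephrins that is common on epithelial and migrating cells, went from 9.91 to 10.44 within array pair 1 and from 10.08 to 10.53 within array pair 2. Both TGF-beta1 arrays lay above both low glucose arrays. The difference was 0.49 ± 0.080, or 1.41-fold, with an adjusted p of 3.51e-08 in the blocked limma fit, and its unadjusted p without the block was 0.0186. The deposited intensities were 933 and 1020 on the low glucose arrays, against 1410 and 1360 with TGF-beta1. With 1 array left out the difference ran from 0.41 to 0.57. Epha2 has a single probe set here, of a kind that reads several transcripts of the gene.

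All 9 tested Eph receptors had a difference above 0, against 8 of the 9 with median centring, and the 8 that did not pass lay between 0.02 and 0.13. Once the block was dropped, 3 of the 9 were above 0 without low glucose replicate 2, and 3 also without TGF-beta1 replicate 2, against all 9 with either of the other arrays left out. The 95% intervals of the 8 that did not pass ran from -0.12 at the lowest to 0.28 at the highest. Ephb4, the receptor of ephrin-B2 in vessels, was the lowest of them at 0.02. Another probe set of Epha4 passed at 0.17 (adjusted p = 0.0474 with limma and the block) when all kept probe sets were tested, against 0.08 on its brightest; it was singled out after its values were seen. Epha5, Epha6, Epha7 and Ephb6 lay below the level limit.

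All 8 ephrins were tested, with 2 that rose, 1 that fell and 5 that did not pass. Efna1, a ligand of Epha2, went from 8.80 to 9.08 within array pair 1 and from 8.97 to 9.23 within array pair 2. The TGF-beta1 arrays lay above the low glucose arrays. The difference was 0.27 ± 0.079, with an adjusted p of 0.0056 in the blocked limma fit. The other probe set of Efna1 stood at 0.23 and passed when all kept probe sets were tested (adjusted p = 0.0196 with limma). With 1 array left out and no block the difference of Efna1 ran from 0.19 to 0.36.

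Efnb2, the transmembrane ligand that marks arteries and pericytes, went from 7.10 to 7.25 within array pair 1 and from 6.96 to 7.38 within array pair 2. The groups did not overlap. The difference was 0.29 ± 0.071, with an adjusted p of 0.000631 in the blocked limma fit. Of its other probe sets one stood at 0.48 and passed (3.3e-08 with limma, all kept probe sets), while the remaining 2 stood at 0.07 and 0.04. All were dim, with means of at most 7.17 against the level limit of 6.85.

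Efna3 went from 8.70 to 8.46 within array pair 1 and from 8.21 to 8.08 within array pair 2. The groups overlapped, with pair 2 lying 0.43 below pair 1. The difference was -0.19 ± 0.069, with an adjusted p of 0.0381 in the blocked limma fit and 0.0726 when no gene was filtered out. The other probe set of Efna3 stood at 0.05. With the block dropped, Efna3 was at 0.05 and -0.43 with the first and the second low glucose replicate left out, and at 0.00 and -0.38 with the first and the second TGF-beta1 replicate left out. Efna1, Efna3 and Efna4 follow each other among the protein-coding genes of mouse chromosome 3 in RefSeq on GRCm38.p6. Their differences were 0.27, -0.19 and 0.00, the last between -0.14 and 0.14 by its interval.

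**Figure D3:**
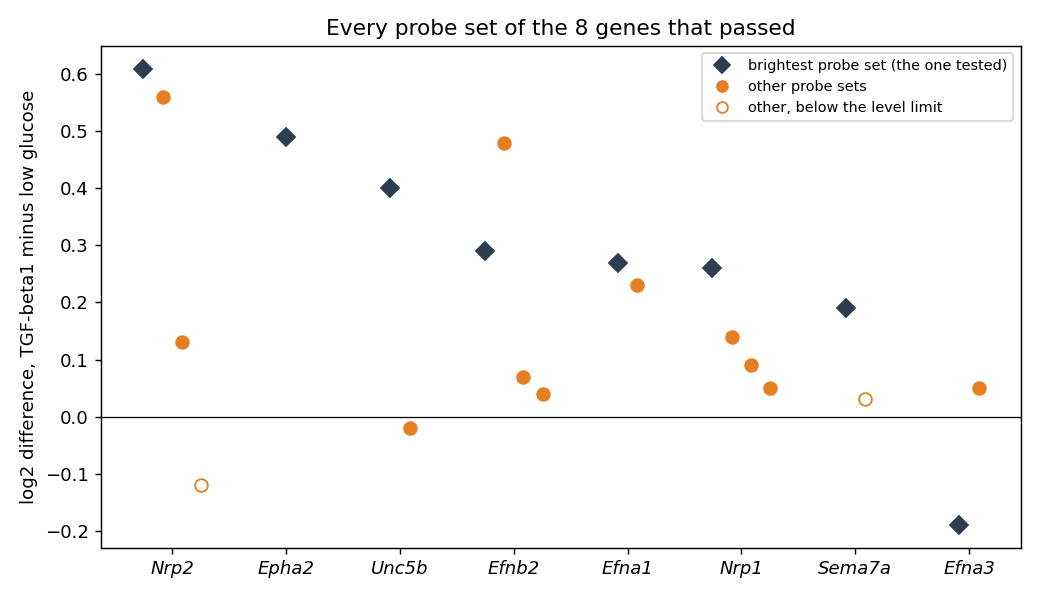
Log2 difference (TGF-beta1 minus low glucose) of every probe set of the 8 genes that passed, with a diamond for the brightest, which was the one tested, filled circles for other probe sets above the level limit and open circles for those below it. Of the 13 other probe sets 10 have the sign of the tested one, and Nrp2, Efna1 and Efnb2 have a second probe set of similar or larger size.

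Among the Slit, Robo and Unc5 genes 1 of 6 tested passed. Unc5b, a netrin receptor of endothelium and other migrating cells, went from 8.01 to 8.49 within array pair 1 and from 7.35 to 7.66 within array pair 2. The groups overlapped, since array pair 2 lay 0.74 below pair 1. The difference was 0.40 ± 0.064, or 1.32-fold, with an adjusted p of 2.76e-08 in the blocked limma fit, and its unadjusted p without the block was 0.342. The other probe set of Unc5b stood at -0.02. With the block dropped, Unc5b was at 0.72 and 0.07 with the first and the second low glucose replicate left out, and at 0.81 and -0.02 with the first and the second TGF-beta1 replicate left out. Unc5c was at 0.01 and Unc50 at -0.13 ± 0.082, both without passing, and Unc5a, Unc5cl and Unc5d lay below the level limit.

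Slit2, a repulsive ligand of the Robo receptors, went from 7.21 to 7.27 within array pair 1 and from 7.14 to 7.40 within array pair 2. The TGF-beta1 arrays lay above the low glucose arrays. The difference was 0.16 ± 0.069 without passing (adjusted p = 0.0922 in the blocked limma fit), and it passed with the authors' scaling (0.0379). The other probe sets of Slit2, below the level limit, stood at 0.00 and 0.01. Slit1 was at 0.14 ± 0.064 (0.109) and Slit3 lay below the level limit. Of the receptors only Robo1 was bright enough to test, at 6.93 and 7.47 on the low glucose arrays and 7.34 and 6.89 on the TGF-beta1 arrays. Its difference was -0.09 ± 0.071, with an interval from -0.23 to 0.05. Robo2, Robo3 and Robo4 lay below the level limit.

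The 44 tested members that did not pass lay between -0.19 and 0.18, and their 95% intervals all lay between -0.35 and 0.33. These intervals take the shared spread of the blocked fit as known. The median standard error was 0.0718 with the block and 0.183 without it, so they do not bound a change firmly. The 14 members below the level limit ran from 5.88 to 7.01 on single arrays, beside 5.55 for an intensity of 0, with differences from -0.12 to 0.14. At such levels a change in the RNA can be hidden, so nothing is said of them.

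The guidance genes differed more between array pairs than between low glucose and TGF-beta1. The median absolute difference between pairs was 0.30 for the 52 tested members, against 0.12 between groups, and the same medians over all genes were 0.24 and 0.09. The pair difference was the larger in 39 of the 52 members (75%), against 76.3% of all genes. Pair differences ran from -0.92 for Sema3f to 0.91 for Sema4b, a membrane-bound semaphorin that was at 7.62 on both arrays of pair 1 and at 8.54 and 8.52 on those of pair 2. Pair 2 was the lower for 36 of the 52 members (69.2%), against 48.1% of all genes. Of the genes that passed, Epha2 and Nrp2 differed by 0.13 and 0.30 between pairs, less than between groups, while Unc5b, Nrp1, Sema7a and Efna3 differed more between pairs.

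**Figure D4:**
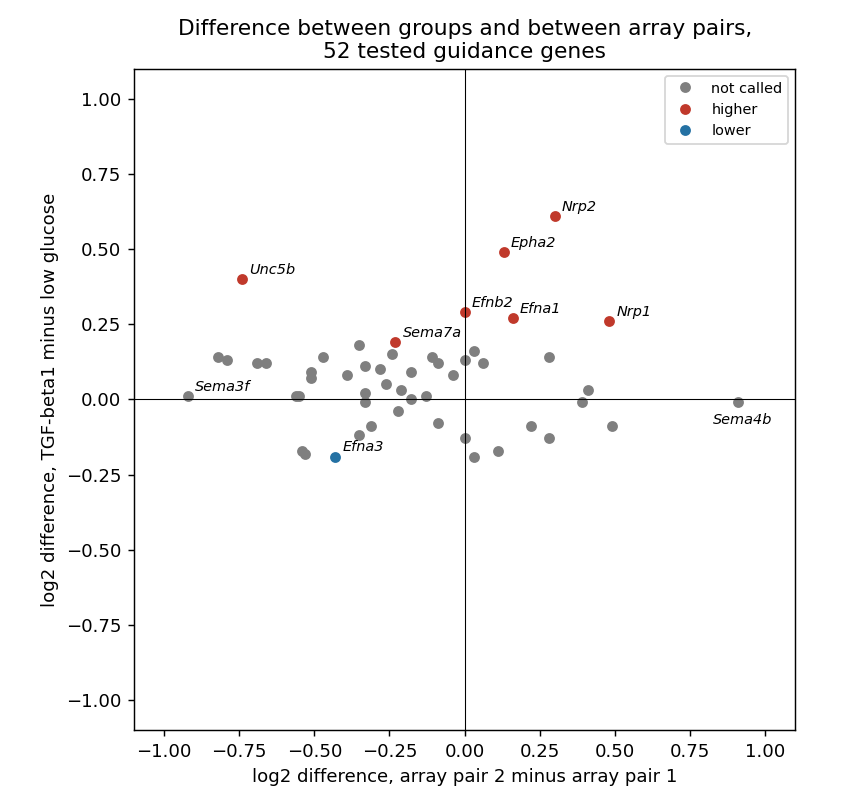
Difference between groups (vertical, TGF-beta1 minus low glucose) against difference between array pairs (horizontal, pair 2 minus pair 1), both on the log2 scale with equal axes, for the 52 tested guidance genes coloured by call. The cloud is wider than it is tall, from -0.92 to 0.91 across and from -0.19 to 0.61 in height.

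Partners and effectors of these families were taken as 5 lists with 84 genes, of which 71 were tested. Of these, 8 rose, 13 fell and 50 did not pass, a share of 29.6% called against 18.6% of all genes. The lists were chosen with earlier results of these data known, so this share is not independent of those results. The median difference was -0.02. In the list of netrins, netrin receptors and repulsive guidance molecules 1 of 14 rose and 3 fell (median -0.02). Ntn4, a netrin of basement membranes, stood at 8.79 and 8.82 on the low glucose arrays and at 8.04 and 7.71 with TGF-beta1, a fall of 0.94 ± 0.069. Ntn1, the classical ligand of the Unc5 receptors, stood at 8.60 and 8.39 on the low glucose arrays and at 8.03 and 8.20 with TGF-beta1, a fall of 0.38 ± 0.068. Flrt1, of a family of membrane proteins that bind Unc5 receptors, fell by 0.30 ± 0.065, and Rgmb, a co-receptor of bone morphogenetic proteins and ligand of neogenin, rose by 0.26 ± 0.077. For each of these genes the groups did not overlap.

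Among 21 tested co-receptors and effectors of semaphorins 2 rose and 3 fell (median -0.03). L1cam, an adhesion molecule that joins Nrp1 in the receptor of Sema3a, was at 9.43 and 9.50 in low glucose and 9.02 on both TGF-beta1 arrays, a fall of 0.44 ± 0.081. Arhgef12 and Arhgef11, exchange factors that bind B-class plexins, fell by 0.34 ± 0.081 and 0.19 ± 0.069. Limk2, a kinase that stabilises actin filaments, rose by 0.29 ± 0.070. When probe sets that may match several transcripts were left out, Limk2 was at -0.01 and Arhgef12 at -0.21, and with no filter Arhgef11 did not pass (adjusted p = 0.0635 with limma and the block). Of the other ligands of neuropilins, Vegfa rose by 0.30 ± 0.066 and Vegfb fell by 0.33 ± 0.078, while Pgf did not pass and Vegfc lay below the level limit.

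Of 13 tested partners and effectors of Slit and Robo 2 rose and 3 fell (median -0.08). Gpc1, a heparan sulfate proteoglycan that binds Slits, stood at 8.28 and 8.25 on the low glucose arrays and at 8.90 and 8.81 with TGF-beta1, a rise of 0.59 ± 0.072. Dag1, dystroglycan, which binds laminin and Slits, fell by 0.29 ± 0.071 and Sos1, an activator of Ras and Rac, by 0.22 ± 0.071. Abl2, a tyrosine kinase that acts on actin, rose by 0.31 ± 0.082. Of 20 tested effectors of Eph receptors and ephrins 2 rose and 3 fell (median 0.02). Ngef, an exchange factor bound to Eph receptors, fell by 0.49 ± 0.066, with -0.51 and -0.47 within the pairs and overlapping groups. Chn2, a Rac inhibitor, fell by 0.31 ± 0.072, but was at -0.19 without passing (adjusted p = 0.0595 with limma and the block) when probe sets that may match several transcripts were left out, and at -0.47 with a floor in place of the pseudocount. Rin1, a Ras effector, rose by 0.31 ± 0.065 and Rgs3, a regulator of G proteins that binds ephrin-B, by 0.29 ± 0.073. Several of these partners and effectors changed more than 1.5 times in size once the block was dropped and an array removed. With low glucose replicate 1 left out, Arhgef11 was at -0.04, Vegfa at 0.15, Vegfb at -0.09, Abl2 at 0.20, Ngef at -0.81, Chn2 at -0.61 and Rgs3 at 0.64. With low glucose replicate 2 left out, Flrt1 was at -0.16, Limk2 at 0.19, Arhgef11 at -0.35, Vegfb at -0.58, Ngef at -0.17, Chn2 at -0.02 and Rgs3 at -0.07. With TGF-beta1 replicate 1 left out, Arhgef11 was at -0.06, Vegfb at -0.16, Rin1 at 0.20, Ngef at -0.83, Chn2 at -0.55 and Rgs3 at 0.58. With TGF-beta1 replicate 2 left out, Flrt1 was at -0.18, Arhgef11 at -0.33, Vegfb at -0.50, Ngef at -0.15, Chn2 at -0.08 and Rgs3 at -0.01. Ntn4, Ntn1, Rgmb, L1cam, Arhgef12, Gpc1, Dag1 and Sos1 changed less.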

How the data were processed

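For each of the 4 arrays the authors deposited a linear intensity of every probe set. The sources used here do not say how probes were summarised and arrays scaled. Groups came from the titles. Replicate numbers only name arrays. Symbols were taken from the platform annotation: of 45037 probe sets that are not controls, 34945 had 1 gene symbol. A further gene of the naming rule is not reported here.

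From the intensities, log2(intensity + 46.9) was computed and quantile-normalised, since array medians differed by up to 0.227. The probe set of highest mean deposited intensity stood for each gene, and 13564 genes at or above the 40th percentile of mean log2 values (6.85) were fitted with limma 3.58.1 (lmFit and eBayes with an intensity trend; R 4.3.3), two-sided, with the array pair as a block. The pair follows from 18 spike-in probe sets, and both arrays titled as a repeat with no number fall in pair 1. Intervals are 95% intervals of that fit. No detection calls were used, and precision is limited by the number of arrays.

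The members, lists, block and naming rule were chosen with earlier results of these data known. Named were all members that passed, the brightest and the most changed of each family, and up to 4 called genes per list, with Pmepa1, Smad7 and Ccn2. Further members were named to complete counts or after their values were seen. Alternatives changed the block, prior, pseudocount, scaling, filter, probe sets and arrays. Promoter windows came from RefSeq on GRCm38.p6 (pandas 2.3.3; figures with matplotlib 3.10.9, Python 3.11.15).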

Additional observations from a re-analysis of the deposited data

How the results depend on the processing

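The 8 guidance genes called became 0 with no replicate block, where 2 (Epha2 and Nrp2) had an unadjusted p under 0.05 in limma. They also became 0 with the replicate block and the prior of the fit without it. There 8 of the 52 tested members had an unadjusted p under 0.05 in limma, among them Plxnb2 (0.0499), which was not called. Of the genes called, Nrp1 (0.0605) and Sema7a (0.0743) were above 0.05 in that fit. Without 1 array and without the block the number called was 0 for each array left out. With all kept probe sets it was 14, counting a gene when any of its probe sets passed. There 18.5% of the members' 92 kept probe sets passed, against 17.6% of all 23222 kept probe sets. In the other alternatives with the block the number of genes was between 7 and 10. Of the 21 partner and effector genes called, 0 passed with no replicate block, 0 with that prior and 0 without 1 array. Nrp2, Unc5b, Nrp1 and Efna1 passed in all 9 alternatives that kept the block and its estimated prior, Epha2 and Efnb2 in the 8 that tested them, and Sema7a and Efna3 in 8 of 9. Among the named genes called, the signs that reversed were those of Limk2 (-0.01), Efna3 (0.05 and 0.00), Nrp1 (-0.06), Unc5b (-0.02) and Rgs3 (-0.07 and -0.01), the last 4 genes when 1 array was left out. Of the named genes that did not pass, Plxnb2 (0.10 and 0.06), Robo1 (0.18 and 0.14), Slit1 (-0.08 and -0.11), Sema3f (-0.43 and -0.46) and Unc50 (0.04) changed sign when 1 array was left out, and Sema3f also with median centring (-0.01), without probe sets that may match several transcripts (-0.11) and within array pair 2 (-0.01). Leaving out an array unbalances the pairs, so that the pair difference enters each value. With the block, leaving out an array leaves no residual degrees of freedom, and the within-pair values stand in its place. With median centring, 33.4% of 2605 genes called were higher, against 42.8% in the fit reported and 46.1% with the authors' scaling. The members' median was 0.06 with median centring, where the median of all genes was -0.02.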
